A study of Mus musculus with 2 samples.

Results

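The 10 circadian clock genes described here are Arntl, Clock, Per1, Per2, Per3, Cry1, Nr1d1, Nr1d2, Dbp and Nfil3, chosen by name as core clock and clock-output genes from the 44713 genes of the deposited table. All 10 were found in it, and 9 had a mean of at least 1 CPM (counts scaled to library size) over the libraries, the level required for a comparison. RNA had been sequenced from pancreatic islets of C57BL/6 mice of 2 genotypes, with 1 library analysed per genotype. The db/db library is labelled Lepr-/-, the loss of the leptin receptor that makes these mice obese and diabetic, and the db/m library is labelled wild type and served as its control. The sources used here do not give the age or sex of the mice, the number of animals per library or the time of day at which the islets were taken.

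The mammalian clock is a feedback loop of transcription. ARNTL (also called BMAL1) pairs with CLOCK and activates genes through E-box sequences, among them the Per, Cry, Nr1d and Dbp genes; PER and CRY proteins then repress the pair, and the REV-ERB receptors encoded by Nr1d1 and Nr1d2 repress Arntl through ROR elements. DBP activates and NFIL3 represses genes through a shared D-box sequence. The messenger RNAs of Dbp, Nr1d1, Per3 and other E-box genes swing over the day in most tissues, those of Arntl and Nfil3 peak at other hours, and the clock of the beta cell is known to shape insulin secretion.

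The promoters of 6 of the genes are shown because they carry the members that differed most between the libraries or a motif of the loop. Each run is the 250 bases before a RefSeq transcription start in GRCm38.p6, written 5′ to 3′ on the strand of the gene, with matched motifs in capitals.
Dbp (chr7:45704997-45705246, plus strand): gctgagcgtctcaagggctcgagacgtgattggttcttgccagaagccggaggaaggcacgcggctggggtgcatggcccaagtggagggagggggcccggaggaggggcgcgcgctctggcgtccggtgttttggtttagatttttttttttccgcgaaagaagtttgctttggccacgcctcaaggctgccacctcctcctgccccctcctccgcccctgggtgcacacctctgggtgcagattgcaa
Nr1d1 (chr11:98775378-98775627, minus strand): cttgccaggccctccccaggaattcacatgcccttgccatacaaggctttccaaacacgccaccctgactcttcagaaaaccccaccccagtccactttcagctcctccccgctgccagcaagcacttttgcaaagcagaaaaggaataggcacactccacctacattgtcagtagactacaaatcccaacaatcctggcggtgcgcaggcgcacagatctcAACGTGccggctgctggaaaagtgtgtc
Nfil3 (chr13:52981040-52981289, minus strand): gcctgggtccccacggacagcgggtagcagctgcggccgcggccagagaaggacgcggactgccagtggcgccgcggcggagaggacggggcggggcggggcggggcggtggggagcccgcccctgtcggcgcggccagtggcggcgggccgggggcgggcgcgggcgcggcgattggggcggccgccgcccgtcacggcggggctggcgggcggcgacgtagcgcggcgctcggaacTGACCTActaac
Per3 (chr4:151044666-151044915, minus strand): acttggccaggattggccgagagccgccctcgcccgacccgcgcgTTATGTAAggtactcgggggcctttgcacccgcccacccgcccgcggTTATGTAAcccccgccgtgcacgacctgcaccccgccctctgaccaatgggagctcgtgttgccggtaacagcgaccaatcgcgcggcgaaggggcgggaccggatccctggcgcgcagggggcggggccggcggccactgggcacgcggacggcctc
Per1 (chr11:69098699-69098948, plus strand): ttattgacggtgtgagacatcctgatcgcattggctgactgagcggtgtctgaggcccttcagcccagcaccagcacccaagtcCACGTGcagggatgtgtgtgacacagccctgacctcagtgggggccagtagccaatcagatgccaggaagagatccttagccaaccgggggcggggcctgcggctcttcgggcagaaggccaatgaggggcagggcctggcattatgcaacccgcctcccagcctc
Cry1 (chr10:85185055-85185304, minus strand): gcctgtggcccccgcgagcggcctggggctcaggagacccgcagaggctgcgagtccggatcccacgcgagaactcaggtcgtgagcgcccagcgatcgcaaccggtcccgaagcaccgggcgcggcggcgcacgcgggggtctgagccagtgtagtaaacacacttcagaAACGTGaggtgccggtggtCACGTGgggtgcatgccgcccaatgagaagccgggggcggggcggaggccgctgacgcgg
The search covered both strands of 300 bases, from 250 before to 50 after each start, for 7 sequences. The first was the E-box, spelled CACGTG, and the next a known E-box variant, spelled CACGTT. The D-box was searched in both of its usual spellings, TTATGTAA and the rarer TTACGTAA. The core of the ROR element was searched as TAGGTCA and, with its other usual base, as TGGGTCA. The last was the cAMP response element, spelled TGACGTCA. RefSeq windows matched 9 of the 10 genes, all but Per2, with 13 windows in all, and no matches overlapped. The 2 D-box matches of Per3 begin at -205 and -158 from the start, and 0.0213% of all 32851 windows held that sequence at least 2 times, while 0.938% held it at all. The E-box CACGTG stands at -166 in the window of Per1 shown and at -60 in Cry1, which has CACGTT on the other strand at -79, and 7.15% of all windows held CACGTG at least 1 time. In Nr1d1 the variant CACGTT matched the other strand at -28, and 4.68% of all windows held it. TAGGTCA matched the other strand of Nfil3 at -12 and, after the start, Arntl at 31, against 2.61% of all windows. In all, 6 of the 13 windows of these genes held at least 1 of the 7 sequences, against 19.5% of all windows. The windows of Dbp, Clock and Nr1d2 held none, which says only that these letters are not in these bases.

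Dbp and Nr1d1 were higher in the db/db library and Nfil3 was lower, each by more than 2-fold, while Clock and Per2 were nearly equal and the other compared members lay between. A gene was called when the ratio of db/db over db/m was at least 2-fold and its 95% counting interval excluded 1. By this rule 2 of the 9 compared members were higher and 1 was lower, beside 3.83% of 10300 compared genes called higher and 4.04% called lower. The members' median log2 ratio was 0.51, beside 0.02 for all compared genes. With 1 library per group there is no replicate error and no p-value, and the intervals cover counting error only, so each ratio describes these 2 libraries and not the genotypes. Counting error alone is a low bar, since the interval excluded 1 for 38.9% of all compared genes whatever the fold.

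**Figure D1:**
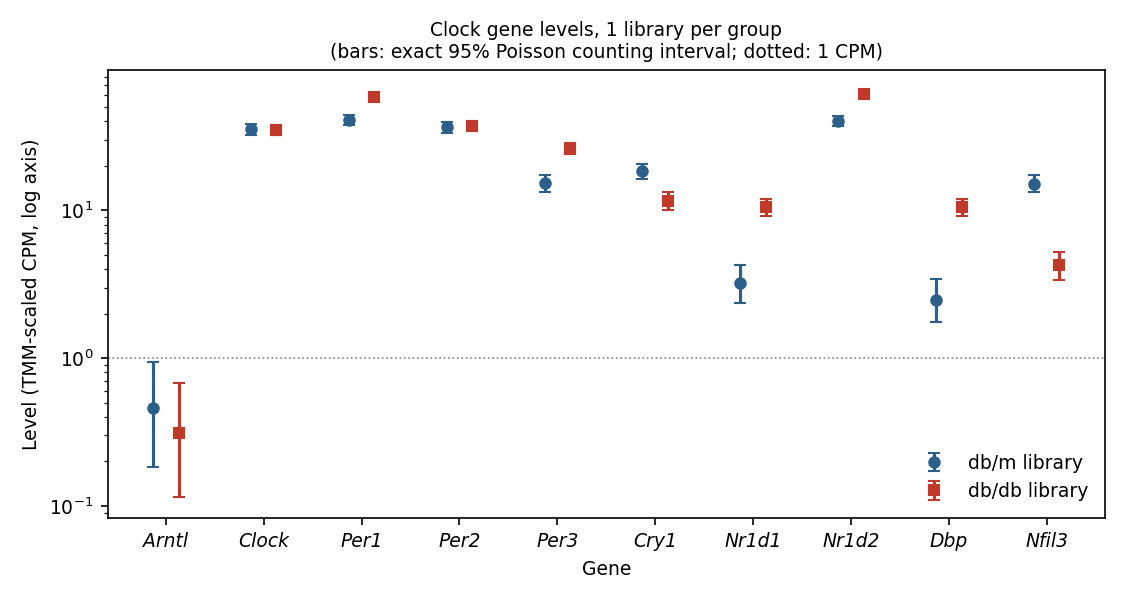
Level of each clock gene in the db/m library (circles) and the db/db library (squares), in CPM scaled with the trimmed mean of M values, on a log axis with exact 95% Poisson counting intervals. The intervals of the libraries do not meet for Per1, Per3, Cry1, Nr1d1, Nr1d2, Dbp and Nfil3, and both values of Arntl lie below 1 CPM.

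The islet libraries were mostly exocrine, which bears on every value here. They held 16271129 (db/m) and 18233695 (db/db) counts, so that 1 count stood for 0.0653 and 0.0516 CPM after TMM scaling (trimmed mean of M values). The 26 listed acinar markers, which mark the enzyme-secreting cells, took 70.3% of all counts in db/m and 70.6% in db/db, and the 18 islet endocrine markers 0.162% and 0.221%. The endocrine sum was 1719 CPM in db/m and 2079 CPM in db/db, with 7 of the 18 called higher and 5 lower, and the acinar sum was 747202 and 664496 CPM, with 0 called higher and 1 lower. These counts stand beside 3.83% of all compared genes called higher and 4.04% called lower. The part of the cell mixture in the clock gene ratios was not tested, and fewer cells of a type cannot be told apart from less RNA per cell. Scaling to total counts moves every log2 ratio up by 0.18 (1.13-fold) and the calls over all genes from 395 higher and 416 lower to 564 and 277, so the smaller differences below are relative to the scaling used.

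Among the activators, Clock, the DNA-binding partner of ARNTL, had 543 counts in the db/m and 679 in the db/db library, or 35.5 and 35 CPM. Its ratio of 0.988 (95% interval 0.882 to 1.11) lay within counting error, and with total counts it was 1.12, on the other side of 1. Arntl had 7 counts in the db/m and 6 in the db/db library, 0.457 and 0.31 CPM. This is below the filter, and the ratio of 0.677 has an interval of 0.188 to 2.35, which includes 1 and also differences of more than 2-fold in either direction. Npas2, which can stand in for CLOCK, had 0 counts in both libraries, which allows up to 0.19 CPM in db/db and 0.241 CPM in db/m (the upper bound of the exact interval). Arntl2, a paralog of Arntl, had 10 counts in db/m and 12 in db/db, also below the filter. Only Clock of the 4 listed activators was therefore measured well enough to compare.

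The period genes did not share one ratio. Per1, whose transcript also responds quickly to signals such as cAMP and glucocorticoids, stood at 40.9 CPM in db/m and 58.3 CPM in db/db (626 and 1130 counts). The ratio was 1.43 (1.29 to 1.58), above 1 but under the 2-fold limit. Per2, the period protein most needed for rhythm in the mouse, was at 36.4 CPM in db/m and 37.3 CPM in db/db (558 and 723 counts), a ratio of 1.02 (0.916 to 1.15) that counting error covers. Per3 was at 15.2 CPM in db/m and 26.1 CPM in db/db (232 and 506 counts). Its ratio of 1.72 (1.47 to 2.02) was the highest of the 3 period genes and also fell short of the limit. Set against each other within the libraries, which removes the scaling, Per3 was 1.68-fold higher relative to Per2 in the db/db library than in the db/m library (1.39 to 2.05) and Per1 1.39-fold (1.2 to 1.62).

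Cry1, a strong repressor of CLOCK and ARNTL that holds both E-box sequences in the promoter shown above, went the other way from Per1 and Per3. It stood at 18.4 CPM in db/m and 11.6 CPM in db/db (281 and 225 counts), 1.58-fold lower in db/db (1.32 to 1.89), within the 2-fold limit. Its paralog Cry2 was at 20.5 CPM in db/m and 22 CPM in db/db, a ratio of 1.07 (0.927 to 1.25). Relative to Cry2, Cry1 was 1.7-fold lower in the db/db library (1.34 to 2.15). Ciart, a further repressor of the pair, which the table lists under its older symbol, had 37 counts in db/m and 59 in db/db, with a ratio of 1.26 (0.822 to 1.96). Of the 6 listed period and cryptochrome repressors, all compared, 0 were called higher and 0 lower, with a median log2 ratio of 0.22. The shares over all compared genes were 3.83% higher and 4.04% lower.

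The genes of both REV-ERB receptors had ratios above 1, and Nr1d1 passed the limit. Nr1d1 encodes REV-ERB alpha, a heme-binding repressor of Arntl and of metabolic genes, and had 49 counts in db/m and 203 in db/db, 3.2 and 10.5 CPM. The ratio was 3.27 (2.39 to 4.57), at rank 122 from the top of the 10300 compared genes. Nr1d2, which encodes REV-ERB beta, was at 40.3 CPM in db/m and 60.9 CPM in db/db (617 and 1180 counts), a ratio of 1.51 (1.37 to 1.67) at rank 1024. Nr1d1 differed more than its paralog, by 2.17-fold when set against Nr1d2 within each library (1.55 to 3.07). Rora and Rorb encode activators that bind ROR elements. Rora had 0 counts in db/m and 1 in db/db and Rorb 5 and 0, so neither could be compared.

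Dbp and Nfil3, the activator and the repressor of the D-box, stood at opposite ends of the members. Dbp, a strongly rhythmic output gene of the clock, had 38 counts in db/m and 203 in db/db, 2.48 and 10.5 CPM. Its ratio of 4.22 (2.97 to 6.14) was at rank 71 from the top of all compared genes. Nfil3, also known as E4BP4 and a regulator of immune cell development as well, had 231 counts in db/m and 82 in db/db, 15.1 and 4.23 CPM. It was 3.56-fold lower in db/db (2.76 to 4.64), at rank 92 from the bottom. Among the compared genes whose mean level lay within 2-fold of the gene's own, 34 of 4111 differed by as much as Dbp in either direction (0.827%), 45 of 4105 as much as Nr1d1 (1.1%) and 32 of 4076 as much as Nfil3 (0.785%).

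Dbp had the highest and Nfil3 the lowest ratio of the members, so their pair had to show the largest shift among pairs of members. It restates those ratios without library scaling and is no separate result. Counts of Dbp over Nfil3 were 15-fold higher in the db/db library than in the db/m library (9.62 to 23.7). Dbp relative to Clock was 4.27-fold higher (2.95 to 6.32) and Nr1d1 relative to Clock 3.31-fold (2.36 to 4.72). These ratios need no library scaling, but they too compare 2 libraries. The other PAR bZIP genes, relatives of Dbp, were in no fixed pair. Tef had 42 counts in db/m and 40 in db/db, with a ratio of 0.753 (0.476 to 1.19), below that of Dbp. Hlf, with 4 and 5 counts, was below the filter and could not be compared.

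**Figure D2:**
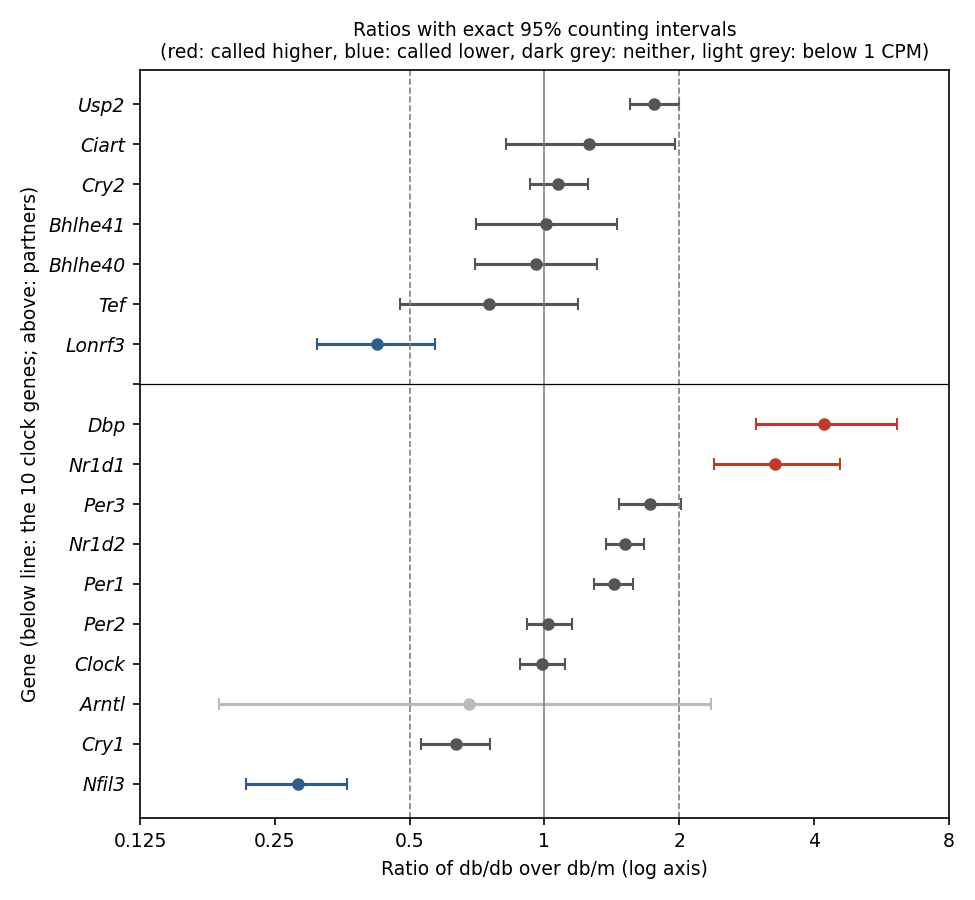
Ratio of db/db over db/m on a log axis with exact 95% counting intervals for the 10 clock genes (below the line) and 7 other clock-list genes that passed the filter (above it). Dbp and Nr1d1 lie wholly above 2 and Nfil3 wholly below 0.5, while Clock and Per2 straddle 1 and Arntl spans 0.188 to 2.35.

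**Figure D3:**
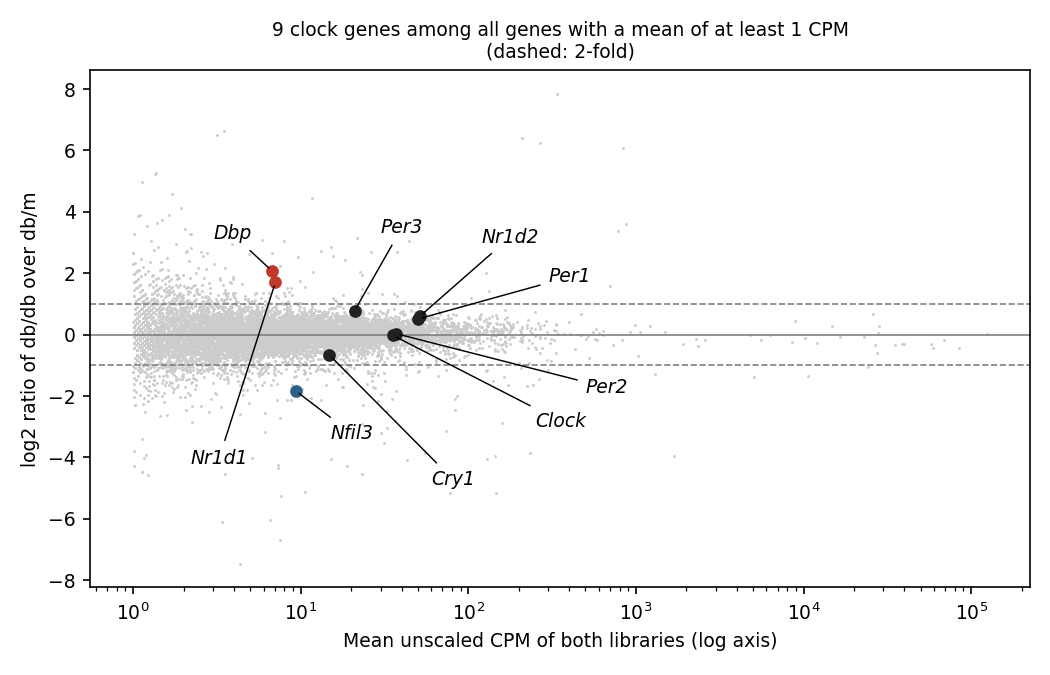
The log2 ratio of db/db over db/m against the mean unscaled CPM on a log axis, for all 10300 compared genes (grey) and the 9 compared clock genes (labelled). Dbp at 2.08, Nr1d1 at 1.71 and Nfil3 at -1.83 lie beyond the 2-fold lines, and the other 6 lie between -0.66 and 0.79.

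All 3 called genes lay above 1 CPM in both libraries, so none entered the comparison through its higher library alone. Each had a mean under 10 CPM (6.73 for Dbp, 7.07 for Nr1d1 and 9.35 for Nfil3), and with a filter at 10 CPM 0 members were called. At that level 0.868% of 4148 genes were called higher and 2.29% lower, under the same rule. Their intervals nevertheless lay wholly beyond 2-fold, and the same 3 members were called under each scaling tried. With the limit at 1.5-fold, Per3 and Nr1d2 joined the higher members and Cry1 the lower, 4 and 2 in all, beside 8.63% and 8.87% of all compared genes. Usp2, with a ratio of 1.76, was called at that limit too.

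Neighbouring genes could share reads with some members, since the sources used here do not say whether the counting used strand. Dbp (chromosome 7, 45705100 to 45710203) overlaps 741 bases of Sphk2, a sphingosine kinase gene with 221 counts in db/m and 322 in db/db and a ratio of 1.15 (0.967 to 1.37). Car11, which ends less than 1000 bases from Dbp, had 11 counts in db/m and 30 in db/db and a ratio of 2.16 (1.05 to 4.77). Nr1d1 (chromosome 11, 98767932 to 98775377) overlaps 1075 bases of Thra, a thyroid hormone receptor gene, at 144 and 151 counts and a ratio of 0.829 (0.655 to 1.05). Uts2, within the span of Per3 (chromosome 4, 150997018 to 151044707), had 0 counts in both libraries. Whether reads of these neighbours entered the counts of the members was not tested. Nfil3 (chromosome 13, 52967209 to 52982878) has no overlapping gene in RefSeq.

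The wider clock machinery was compared by the same rule. Of 30 further genes on the clock lists, 20 were compared, 0 were called higher and 2 lower, among them Lonrf3. This stands beside 3.83% of all compared genes called higher and 4.04% called lower. Their median log2 ratio was -0.07, beside 0.02 for all compared genes. The repressors Bhlhe40 and Bhlhe41, which compete for E-boxes, had ratios of 0.957 (0.698 to 1.31) and 1.01 (0.705 to 1.45). Among 10 genes for kinases and turnover of clock proteins, 7 were compared and 0 called, beside those shares of all genes, with a median of -0.07. Csnk1d, a kinase that marks PER proteins for decay, was at 0.853 (0.752 to 0.967). Usp2, a deubiquitinase whose transcript is itself rhythmic, was at 23.4 CPM in db/m and 41.3 CPM in db/db, a ratio of 1.76 (1.55 to 2).

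Genes known as rhythmic outputs in many tissues had no shared direction. Of 10 listed, which include Usp2, 8 were compared, 0 were higher and 1 lower, and 4 ratios lay above 1 and 4 below. By the same rule 3.83% of all compared genes were higher and 4.04% lower. Lonrf3, a RING finger gene, was 2.37-fold lower in db/db (1.76 to 3.21), at 8.55 CPM in db/m and 3.61 CPM in db/db. Tspan4, a tetraspanin gene, was at 1.48 (1.08 to 2.04) and Wee1, a cell cycle kinase gene under E-box control, at 0.814 (0.637 to 1.04). Por, the reductase that feeds electrons to cytochromes P450, was 1.82-fold lower (1.29 to 2.59), within the limit. Nampt and Gadd45a were below the filter.

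Several clock genes, Per1 and Nfil3 among them, are also induced by stimuli, and other induced genes were low in the db/db library. Of 15 compared immediate early genes, the first to answer a stimulus or tissue handling, 0 were higher and 14 lower in the db/db library, with a median log2 ratio of -2.46 and summed levels of 996 CPM in db/m and 129 CPM in db/db. All 9 heat shock genes were lower, with a median of -2.87 (summed 1729 CPM in db/m and 263 CPM in db/db). Over all compared genes 3.83% were called higher and 4.04% lower. Fos was at 109 CPM in db/m and 7.48 CPM in db/db, 14.6-fold lower (12.3 to 17.4). Relative to Fos, Per1 was 20.8-fold higher in db/db (17 to 25.4), Per2 14.9-fold (12.1 to 18.4) and Nfil3 4.09-fold (2.97 to 5.59). These values mostly restate the lower Fos. On their own, Per1 had a ratio of 1.43 and Per2 of 1.02, and Nfil3 was 3.56-fold lower in db/db. The log2 ratio of Nfil3, -1.83, lay within the range of the immediate early genes, -4.55 to -0.37, and the part of such induction in its ratio was not tested.

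Glucocorticoids also act on Per1, and the list of genes they induce, which holds Per1 itself, had 1 of 7 compared members higher and 1 lower, with a median log2 ratio of 0.20. Of all compared genes, 3.83% were called higher and 4.04% lower. The higher gene was Zbtb16, at 13.8 CPM in db/m and 35.3 CPM in db/db with a ratio of 2.56 (2.19 to 3), and the lower gene was the phosphatase gene Dusp1, which is also an immediate early gene. Fkbp5, a co-chaperone of the glucocorticoid receptor, was at 52 CPM in db/m and 82.3 CPM in db/db, 1.58-fold (1.45 to 1.72). Errfi1, a feedback inhibitor of the EGF receptor, was at 30.8 CPM in db/m and 16.3 CPM in db/db, 1.89-fold lower (1.64 to 2.19) and within the limit. Tsc22d3, on this list and on that of rhythmic outputs, had a ratio of 1 (0.874 to 1.15). Sgk1 had 0 counts in both libraries.

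Other cell types of a pancreas digest left few counts. Ductal markers had 0 of 7 called, with summed levels of 187 CPM in db/m and 126 CPM in db/db. Endothelial markers had 2 of 4 lower (11.4 and 8.52 CPM summed) and stellate and fibroblast markers 1 of 4 lower (8.95 and 9.91 CPM). Of 8 macrophage markers only Lyz2 was compared and it was higher (4.64 and 7.07 CPM summed, with Emr1 and Mrc1 at 0 in at least 1 library). Lyz2 alone made up 2.16 CPM of that sum in db/m and 4.9 CPM in db/db. The other macrophage markers, below the filter, had no shared direction. No lymphocyte marker reached the filter, and Cd3e, Cd3d, Cd8a and Ms4a1 were at 0 in at least 1 library (3.07 and 1.39 CPM summed). For all compared genes the shares called were 3.83% higher and 4.04% lower. The part of these other cell types in the clock gene ratios was not tested.

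**Figure D4:**
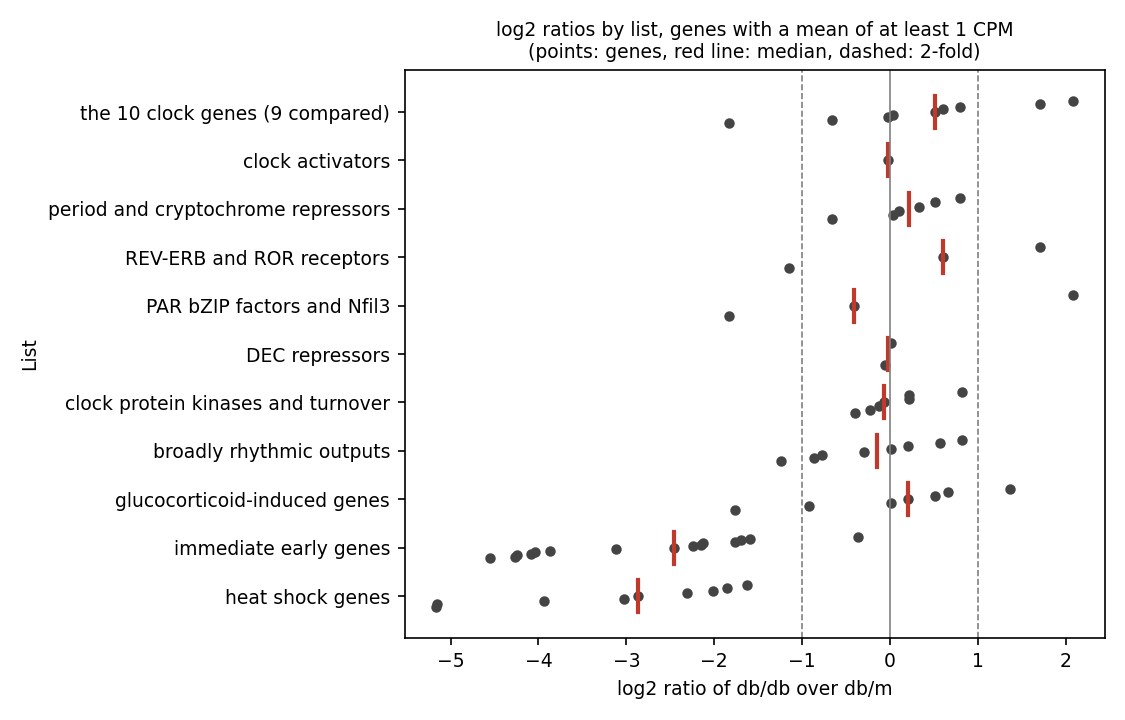
The log2 ratio of db/db over db/m for each compared gene (points) and the median (red line) of the clock lists, the glucocorticoid-induced, the immediate early and the heat shock genes. The clock lists have medians from -0.41 to 0.60, and each of these extremes rests on 3 compared genes. The immediate early and heat shock genes have medians of -2.46 and -2.87.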

How the data were processed

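For 1 db/db and 1 db/m islet library the authors deposited raw counts per gene, as whole numbers. Per the labels, islets were digested free, enriched on a gradient and sequenced as total RNA after removal of ribosomal RNA. The submitters' processing notes name HISAT2 2.0.4 and the builds mm10 and GRCm38. The sources used here do not give the counting program, the annotation or the use of strand. The design text speaks of triplicates; 1 library per group was analysed here.

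The counts were scaled with TMM factors (edgeR 4.0.16, R 4.3.3) to CPM. Each ratio (db/db over db/m) carries an exact 95% Clopper-Pearson counting interval, and each level an exact Poisson interval (Python 3.11.15, scipy 1.17.1). PCR copies of a molecule count as separate reads, so intervals cover counting error only. The script was tested on simulated data. Calls needed at least 2-fold, a mean of at least 1 unscaled CPM and an interval excluding 1. A count of 0 was set to a floor of 3 counts for ratios, or to the other library's count if smaller. Ratios between 2 genes are odds ratios with exact conditional intervals, over 21 fixed pairs, of which Clock with Npas2 gave no value. Transcript lengths were not used, so levels are not compared between genes.

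The members and the 18 gene lists were chosen with earlier results of these data known. Named are the 10 members, called genes of the 7 clock lists and fixed partners. Of each other list, up to 3 genes with the highest mean CPM are named. Named after their values were seen were Csnk1d, Usp2, Tspan4, Wee1, Por, Nampt, Gadd45a, Arntl2, Rorb, Tsc22d3, Dusp1, Errfi1, Sgk1, neighbours and markers at 0. Of 156 distinct listed genes all were found, 3 under an older symbol. Not every listed gene is reported here by name. Positions and promoters come from RefSeq for GRCm38.p6.

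Alternatives were total counts, DESeq2 1.42.0 size factors, totals without acinar and endocrine markers, other filters, a 1.5-fold limit and stricter intervals.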

Additional observations from a re-analysis of the deposited data

How the results depend on the processing

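No paired analysis was possible because each group has 1 library, and for the same reason no library could be left out. Every scaling tried called Dbp and Nr1d1 higher and Nfil3 lower, and these calls also held without a filter, at the Bonferroni level and with an interval wholly beyond 2-fold. With DESeq2 size factors none of the values listed below moved beyond its counting interval or its limit. With total counts the ratio was 1.12 for Clock, 1.61 for Per1, 1.16 for Per2 and 1.71 for Nr1d2, and without acinar and endocrine marker genes in the total it was 1.13, 1.63, 1.17 and 1.73. In these settings the members' median log2 ratio was 0.69 and 0.70 in place of 0.51, and that of the other clock-list genes 0.11 and 0.12 in place of -0.07. The other clock-list genes then had 1 lower call in each, and without the marker genes 1 higher call (Usp2). All genes had 277 and 263 lower calls.

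With a filter at 10 CPM, 0 members were called higher and 0 lower, because the called members have means under 10 CPM. The other clock-list genes then had 1 lower call, all genes 36 higher and 95 lower, and the medians were 0.27 for the members and 0.05 for the other clock-list genes. Without a filter the members' median was also 0.27, since Arntl enters it, and all genes had 745 higher and 814 lower calls. At 1.5-fold, 4 members were higher and 2 lower, 1 other clock-list gene was higher and 4 were lower, and all genes had 889 and 914. The Bonferroni level left 138 higher and 213 lower among all genes. An interval wholly beyond 2-fold left 99 and 137, and 0 lower calls among the other clock-list genes. Of the members Arntl had the fewest counts, 13 over both libraries. The counting program and annotation are not given. Whether they or low expression left Arntl, Npas2 and Sgk1 with few or no counts was not tested.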
